A study of Mus musculus with 6 samples.

Results

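DEAD and DEAH box RNA helicases are enzymes that use ATP to open RNA duplexes or to strip proteins from RNA. Their transcripts were measured in B16-F10, a line of mouse melanoma cells that vary in melanin content, after sorting. The genes described are the rows of the count table whose mouse symbol is Ddx or Dhx followed by a number and at most 1 letter, without *Ddx21*, *Ddx58*, *Dhx58* and *Ddx3y*. There were 49 such rows among 18324 gene rows, 34 with a Ddx and 15 with a Dhx symbol. Of these, 48 passed the filter on low counts. The germline helicase gene *Ddx4*, with 63 counts in all, did not pass and was not tested, while *Dhx32*, with 69 counts, was tested.

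The study compared high-pigmented with low-pigmented cells, separated by fluorescence-activated sorting that used the way melanin scatters light. Both groups came from the same cultured line from ATCC, for which the labels name no drug or engineered allele, and each group had 3 libraries. A suffix in the titles joins 1 high-pigmented and 1 low-pigmented library, and these are called pairs 1, 2 and 3. The labels do not say what the suffix marks or whether the libraries came from separate cultures, so p-values measure only the spread between these libraries, which may be technical.

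The family takes its name from the amino acids Asp-Glu-Ala-Asp or Asp-Glu-Ala-His in the ATP-binding core. DEAD box proteins open short duplexes locally or clamp onto RNA, and proteins with a MIF4G fold activate several of them. DEAH box proteins pull on or move along RNA and are often activated by G-patch proteins. Members drive steps of splicing, ribosome assembly, mRNA export, translation and mRNA decay, so growing cells express many of them at once.

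The stretch that gives the family its name is shown for members that the results turn on and for members that depart from it, as coding DNA of the annotated transcript on GRCm38. Each window has 36 bases, and capitals mark the 4 codons of the box.
*Ddx46*, chr13:55660746-55660781, plus strand: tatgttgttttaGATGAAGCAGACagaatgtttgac
*Ddx20*, chr3:105683442-105683477, minus strand: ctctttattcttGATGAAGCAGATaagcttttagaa
*Ddx5*, chr11:106785181-106785216, minus strand: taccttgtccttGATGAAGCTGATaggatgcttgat
*Ddx17*, chr15:79538863-79538898, minus strand: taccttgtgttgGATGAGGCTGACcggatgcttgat
*Ddx3x*, chrX:13289396-13289431, plus strand: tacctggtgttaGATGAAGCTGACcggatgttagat
*Ddx19a*, chr8:110979074-110979109, minus strand: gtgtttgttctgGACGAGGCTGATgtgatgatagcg
*Ddx19b*, chr8:111011323-111011358, minus strand: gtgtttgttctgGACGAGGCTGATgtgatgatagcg
*Dhx15*, chr5:52171484-52171519, minus strand: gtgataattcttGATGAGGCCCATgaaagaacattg
*Ddx11*, chr17:66138162-66138197, plus strand: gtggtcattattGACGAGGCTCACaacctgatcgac
*Ddx39b*, chr17:35247078-35247113, plus strand: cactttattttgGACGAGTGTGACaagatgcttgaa
*Dhx9*, chr1:153468877-153468912, minus strand: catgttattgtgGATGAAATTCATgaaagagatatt

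Read with the standard genetic code, 26 members had a DEAD box, all of them Ddx genes. A DEAH box was found in 9 members, 8 Dhx genes and *Ddx11*, which encodes a DNA helicase. In 11 members the alanine codon was replaced by another, as in *Ddx39b* and *Dhx9* above. In *Ddx60*, *Ddx26b* and *Dhx32* the search found no box. The 26 DEAD boxes were written in 12 different DNA spellings and the 9 DEAH boxes in 9. *Ddx19a* and *Ddx19b* were identical over the window shown, and *Ddx19b* shared a stretch of 258 bases with *Ddx19a* at 95% identity or more, which did not lie within 500 bases of the 3′ end of *Ddx19b*.

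RefSeq promoter windows of 300 bases, from 250 before to 50 after the gene start (GRCm38.p6), were matched for 44 members. The E-box CACGTG, which reads the same on both strands, was present in 7 of them (15.9%) and in 8.09% of 27025 genes. CATGTG, searched on both strands, was present in 4 members (9.09%) and in 15.9% of genes. These are matches of letters only.

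Gene counts ranged from 3819605 to 7311131 per library, and the libraries of pair 2 stood apart. The row RP23-81C12.3 and the mitochondrial ribosomal RNA rows together took 66.1% of gene counts in its high-pigmented and 34.8% in its low-pigmented library, against 5.05% to 6.99% in the others. The melanocyte markers *Sox10*, *Mitf*, *Mlana*, *Pmel*, *Dct*, *Tyrp1* and *Tyr* summed to 4440 to 20700 CPM (counts scaled to a common normalised library size) in high-pigmented and 6190 to 17300 CPM in low-pigmented libraries. Summed fibroblast markers (3 of 5 in the table) reached 33.2 and 5.29 CPM at most in the respective groups, keratinocyte markers (2 of 4) 15.1 and 4 CPM, endothelial markers (2 of 4) 11.6 and 1.26 CPM, and the leukocyte marker *Itgam* (1 of 5) 6.4 and 0 CPM. The part of pair 2's composition and of these markers in the helicase values was not tested.

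Helicase transcripts spanned a wide range of abundance, led by the same few genes in pairs 1 and 3. In this 3′-end assay a read comes from near the polyadenylated end, so CPM does not scale with transcript length, although it depends on how that end is annotated. The mean level over the 6 libraries was at least 100 CPM in 8 members, 10 to 100 CPM in 29 and lower in 12, with a median of 23.7 CPM. *Ddx5*, *Ddx17*, *Ddx3x* and *Ddx6* had means of 442.3, 356.2, 340.6 and 256.8 CPM and held 45.8% of the summed mean level. These were the 4 highest members in each library of pairs 1 and 3. In pair 2 the order differed. *Dhx15*, at 160.1 CPM, was the fourth highest in the high-pigmented library, and *Ddx10*, *Ddx46* and *Ddx27* led the low-pigmented one at 400.5, 382.2 and 303.3 CPM. *Ddx5* lay above *Ddx6* in every library. The order of *Ddx5*, *Ddx17* and *Ddx3x* varied, and *Ddx17* was highest in the high-pigmented library of pair 2, at 314.9 CPM. The SD of *Ddx5* was 199 CPM among high-pigmented libraries and 180.3 CPM among low-pigmented ones (n = 3 each).

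**Figure D1:**
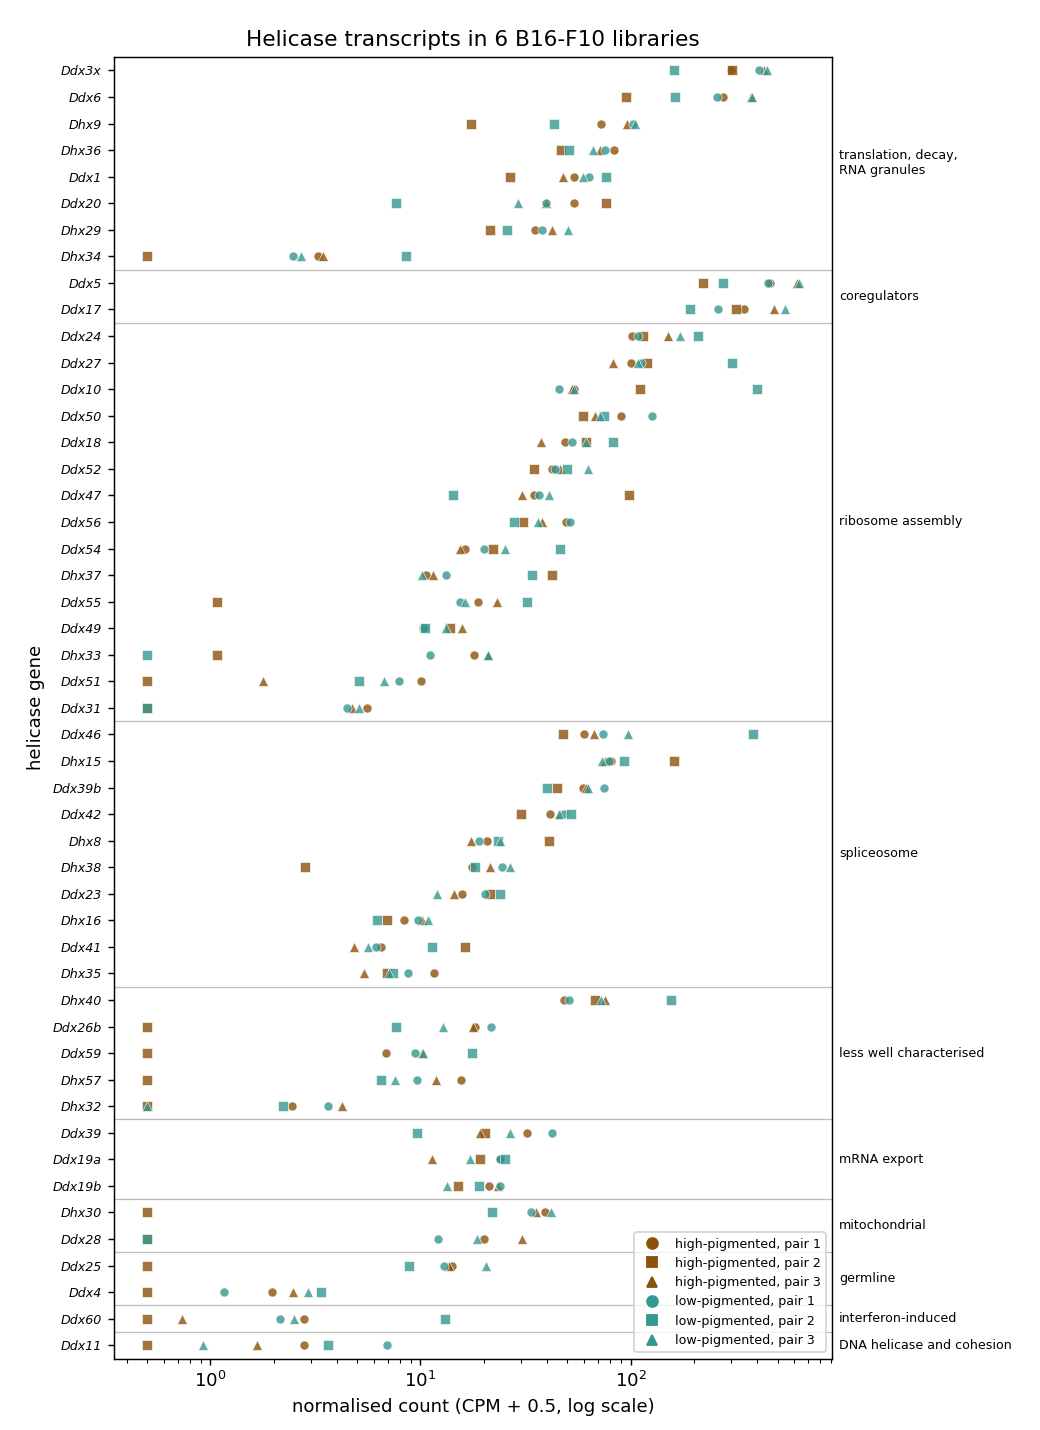
Normalised count of each helicase gene (CPM + 0.5, log axis) in the 6 libraries, grouped by role; colour gives the sorted group, shape gives the pair, and markers can cover each other. The squares of pair 2 lie away from the other libraries for many genes, and markers at the left edge are 0 counts.

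All 49 helicase genes together took 0.305% ± 0.177 of gene counts in high-pigmented and 0.366% ± 0.119 in low-pigmented cells (SD, n = 3 each). In pairs 1, 2 and 3, high-pigmented cells had 0.373%, 0.104% and 0.437%. The low-pigmented ones had 0.391%, 0.236% and 0.470%. The low-pigmented library was the higher of each pair, and the groups overlapped. Without RP23-81C12.3 and the mitochondrial ribosomal RNA rows in the totals, the shares were 0.401%, 0.307% and 0.468% against 0.412%, 0.361% and 0.496%. In these bulk libraries, fewer cells with a transcript and less of it per cell cannot be told apart.

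Whether helicase transcripts differ with pigment content was tested for each gene. By the quasi-likelihood test of edgeR, Benjamini-Hochberg adjusted over 11324 genes, 0 of the 48 helicases passed an adjusted p of 0.05, and 0% of all genes did. The adjusted p was 0.9996 for each helicase gene. Missing this threshold does not show that levels were alike. An unadjusted p under 0.05 was found for 1 of them, *Ddx46* (2.08%), and for 0.336% of all genes, 0.203% when only genes lower in high-pigmented cells are counted. It was not reached when any 1 of the high-pigmented libraries or the low-pigmented library from pair 2 was left out. The log2 fold change, high over low pigmented, was below 0 for 30 of the 48 (62.5%) and for 53% of all genes, and its median was -0.16 over the helicases and -0.04 over all genes. With library totals as the only scaling, 37 of the 48 lay below 0, and the median over all genes moved to -0.13. Standard errors of the log2 fold change ran from 0.38 to 1.68, with a median of 0.63.

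With the pairs as a block, 0 of 48 helicases reached an adjusted p below 0.05 by edgeR's test, as did 0% of all genes. The smallest adjusted p of a helicase was 0.927, and 0 had an unadjusted p under 0.05, against 1.88% of all genes (1.1% lower in high-pigmented cells). With the block and both libraries of pair 2 left out, 1.3% of 11906 genes passed the adjusted threshold and 0 of 49 helicases did, the smallest adjusted p being 0.233 for *Ddx28*. In that fit 4 helicases (8.16%), against 12.1% of all genes (6.06% lower in high-pigmented cells), had an unadjusted p under 0.05. They were *Ddx46*, *Ddx18*, *Ddx20* and *Ddx28*, with log2 fold changes of -0.44, -0.43, 0.44 and 0.73.

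**Figure D2:**
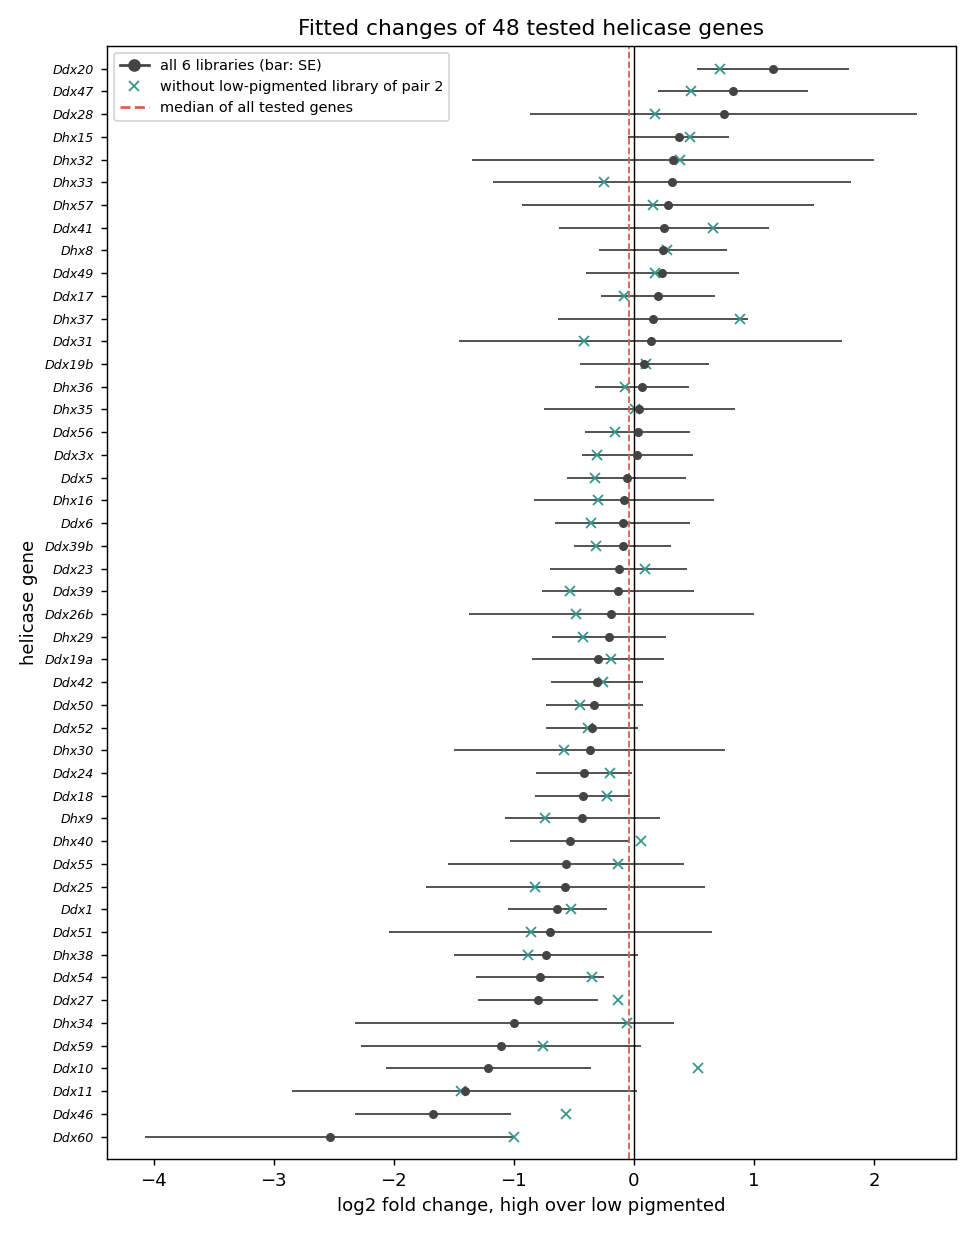
Log2 fold change (high over low pigmented) of the 48 tested helicase genes; dots with bars are the edgeR estimate and its SE over 6 libraries, crosses the estimate leaving out the low-pigmented library of pair 2, and the dashed line the median of all tested genes. Most bars cross 0, and *Ddx10* moves from -1.21 to 0.53 and *Ddx46* from -1.67 to -0.56 when that library is left out.

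Of the 10 spliceosomal helicases, 4 had a log2 fold change above and 6 below 0, with a median of -0.09, and none passed the adjusted threshold. *Ddx46* (chr13:55635027-55681256, plus strand) encodes the helicase that helps the U2 particle engage the branch site. For pairs 1, 2 and 3 in turn, its level was 59.2, 47.1 and 66.3 CPM in high-pigmented cells, and 73.4, 382.2 and 96.8 CPM in the low-pigmented ones. Every low-pigmented library lay above every high-pigmented one, and that of pair 2 stood at 4.49 times the mean of the other low-pigmented libraries. The log2 fold change was -1.67 ± 0.65 (SE; unadjusted p = 0.0326, adjusted p = 0.9996 in edgeR's test). It was -0.56 when the low-pigmented library of pair 2 was left out. With the block and without pair 2 it was -0.44 ± 0.17 (SE; adjusted p = 0.262 in edgeR's test). Groups that did not overlap were found in 2 of the 48 helicases, *Ddx46* and *Ddx1*, both lower in high-pigmented cells (4.17%, against 3.31% of all genes in that direction and 5.74% in either). In the opposite direction there were 0, against 2.43% of all genes.

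*Dhx15* encodes a DEAH box helicase that takes apart spent spliceosomes and also acts in ribosome assembly. It was at 79.7, 160.1 and 75.1 CPM in the high-pigmented and 78.0, 92.1 and 72.9 CPM in the low-pigmented libraries. High-pigmented cells had the higher value of each pair, with log2 differences of 0.03, 0.80 and 0.04, so nearly all of the difference was in pair 2. The log2 fold change was 0.37 ± 0.42. *Dhx38*, whose product acts at the second step of splicing, was at 17.1, 2.33 and 20.8 CPM against 23.96, 17.7 and 26.2 CPM. It was lower in the high-pigmented library of every pair, and the groups overlapped, with a log2 fold change of -0.73 ± 0.77.

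**Figure D3:**
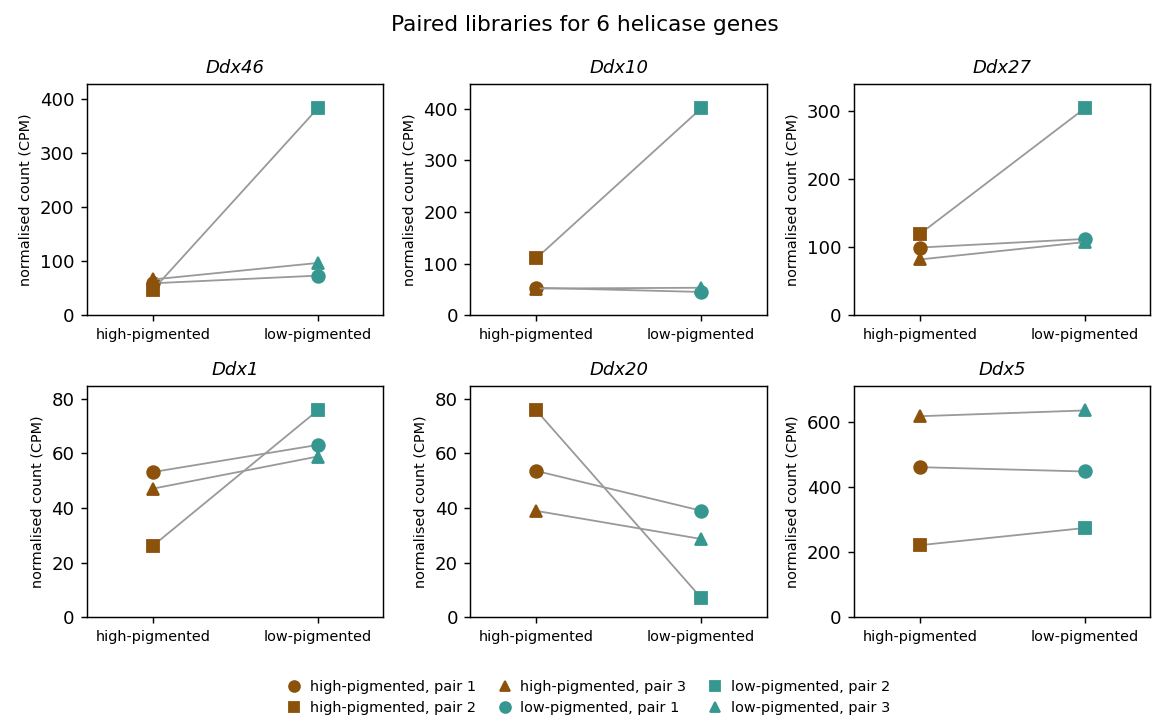
Normalised count (CPM, linear axes from 0) of 6 helicase genes, with a line joining the high- and low-pigmented library of each pair and shape giving the pair. For *Ddx46*, *Ddx10* and *Ddx27* the low-pigmented library of pair 2, at 382.2, 400.5 and 303.3 CPM, lies far above the other libraries, while for *Ddx20* it lies lowest.

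The 15 ribosome assembly helicases had a median log2 fold change of -0.35, with 6 above and 9 below 0, and none passed the test. Of these, *Ddx24*, *Ddx27*, *Ddx50*, *Ddx18*, *Ddx52* and *Ddx54* were lower in the high-pigmented library of all 3 pairs. This made 6 of 15, against 17.2% of all genes, and 0 were higher in all 3, against 12.9%. Some differences were small, such as -0.05 for *Ddx52* in pair 1 and -0.08 for *Ddx50* in pair 3 on the log2 scale. *Ddx24*, which encodes a nucleolar helicase, was at 101.5, 114 and 150.1 CPM in high-pigmented and 108, 208 and 171 CPM in low-pigmented libraries, with a log2 fold change of -0.41 ± 0.40. *Ddx27*, needed for processing of ribosomal RNA, was at 99.4, 119 and 82.0 CPM against 112, 303.3 and 107 CPM. The groups of *Ddx27* overlapped, and the low-pigmented library of pair 2 stood at 2.76 times the mean of the other low-pigmented libraries. Its log2 fold change of -0.80 ± 0.50 was -0.14 without that library.

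*Ddx54* was at 15.8, 21.5 and 15.0 CPM in high-pigmented and 19.5, 45.5 and 24.7 CPM in low-pigmented libraries, with a log2 fold change of -0.78 ± 0.53. Its product is a nucleolar helicase that also binds nuclear receptors. *Ddx52*, for a small-subunit assembly factor, was at 41.7, 34.3 and 45.5 CPM against 43.1, 49.5 and 62.5 CPM, and its log2 fold change was -0.35 ± 0.38. Both were lower in the high-pigmented library of every pair, and their groups overlapped. *Ddx10*, another ribosome assembly gene, was chosen after its values were seen. It was at 53.4, 110.6 and 51.9 CPM against 45.3, 400.5 and 53.4 CPM. Its log2 fold change of -1.21 ± 0.85 turned to 0.53 without the low-pigmented pair 2 library, which stood at 8.11 times the mean of the other low-pigmented ones.

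The 8 helicases grouped under translation, mRNA decay and cytoplasmic RNA granules included *Ddx1* and *Ddx20*, whose products are described below. The median log2 fold change of the 8 was -0.15, with 3 above and 5 below 0 and none past the test. *Ddx3x*, an X-linked gene for a helicase that aids translation of structured mRNAs, was at 299.8, 302.1 and 429 CPM in high-pigmented and 408, 161 and 443 CPM in low-pigmented libraries. *Ddx6*, for a decapping activator that builds processing bodies, was at 276, 94.9 and 374 CPM against 258, 161 and 376 CPM. The groups overlapped for both genes, and the log2 fold changes were 0.03 ± 0.46 for *Ddx3x*, which flipped to -0.18 with library totals as the only scaling, and -0.09 ± 0.56 for *Ddx6*. In both, pair 2 had the lowest low-pigmented library.

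*Ddx1* (chr12:13216973-13249213, minus strand), whose product takes part in tRNA splicing and RNA transport, was at 53.2, 26.2 and 47.1 CPM in high-pigmented and 63.1, 75.8 and 58.9 CPM in low-pigmented libraries. It was named after its values were seen, as the other gene whose groups did not overlap. Its log2 fold change was -0.64 ± 0.41, and -0.30 ± 0.19 with the block but not pair 2 (adjusted p = 0.575 in edgeR's test). *Dhx9*, for RNA helicase A, was at 71.8, 16.9 and 95.2 CPM against 102.5, 42.6 and 104 CPM, lower in high-pigmented cells in every pair, with a log2 fold change of -0.43 ± 0.64.

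*Ddx20* (chr3:105678270-105687574, minus strand) encodes Gemin3 of the SMN complex, which loads Sm proteins onto spliceosomal RNAs. It was at 53.5, 75.7 and 38.9 CPM in high-pigmented and 39.0, 7.15 and 28.7 CPM in low-pigmented libraries. The high-pigmented library was the higher of each pair, although the high-pigmented library of pair 3 lay just under the low-pigmented one of pair 1. The low-pigmented library of pair 2 stood at 0.211 times the mean of the other low-pigmented ones. The log2 fold change was 1.16 ± 0.63 (adjusted p = 0.9996 in edgeR's test), and 0.44 ± 0.20 with the block but not pair 2 (adjusted p = 0.372 in edgeR's test).

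The coregulators *Ddx5* and *Ddx17*, close relatives that act in transcription, splicing and microRNA processing, were the most abundant members. *Ddx5* was at 460.4, 221 and 617 CPM in high-pigmented and 447, 274 and 634 CPM in low-pigmented libraries. *Ddx17* was at 346, 315 and 482.5 CPM against 259.6, 190.1 and 544 CPM. In both genes and both sorted groups pair 3 was highest and pair 2 lowest. The log2 fold changes were -0.06 ± 0.50 and 0.20 ± 0.47. A stretch of 1848 bases that *Ddx5* shares with *Gm12183*, also a row of the table, makes its count uncertain where reads could be split. Shared stretches within 500 bases of the 3′ end, with a partner that was also counted, were found in 6 members, among them *Ddx5*, *Ddx18* and *Ddx27*. *Ddx17* overlaps an exon of *Kdelr3* on the opposite strand, and no source used here states whether counting used strand. Overlaps of this kind were found in 10 members, among them *Ddx54*. *Dhx32* and *Ddx49* were counted among both the 6 and the 10. Their partners in shared sequence, *Bccip* and *Homer3*, are the genes on the opposite strand.

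Of the 3 helicases grouped under mRNA export, 1 had a log2 fold change above and 2 below 0, with a median of -0.14. *Ddx39b* was counted among the spliceosomal helicases instead, with a log2 fold change of -0.09 ± 0.40 and groups that overlapped. *Ddx39*, for an adaptor-loading helicase, was at 31.7, 19.8 and 18.7 CPM in high-pigmented and 41.8, 9.15 and 26.1 CPM in low-pigmented libraries. *Ddx19a*, whose product works at the nuclear pore, was at 23.4, 18.6 and 10.9 CPM against 23.5, 24.9 and 16.7 CPM. Groups overlapped for both, with log2 fold changes of -0.14 ± 0.63 and -0.30 ± 0.55. An exon of *Adgre5* lies opposite *Ddx39*.

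The mitochondrial helicases *Dhx30* and *Ddx28*, which act in assembly of the mitochondrial ribosome, had no count in the high-pigmented library of pair 2. *Dhx30* was at 38.7, 0 and 34.8 CPM in high-pigmented and 33.2, 21.4 and 41.5 CPM in low-pigmented libraries. *Ddx28* was at 19.5, 0 and 29.9 CPM against 11.6, 0 and 18.1 CPM. In pairs 1 and 3 the log2 difference of *Ddx28*, high minus low pigmented, was 0.74 and 0.72, and pair 2 gave no value for it. Its log2 fold change of 0.75 ± 1.61 over 6 libraries was 0.73 ± 0.27 with the block but not pair 2 (adjusted p = 0.233 in edgeR's test). *Dhx30* and *Ddx28* overlap exons of *Smarcc1* and *Dus2* on the opposite strand.

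Among the 5 less well characterised members the median log2 fold change was -0.19. *Dhx40* was at 47.8, 67.5 and 75.1 CPM in high-pigmented and 50.2, 154.7 and 71.5 CPM in low-pigmented libraries. Its log2 fold change of -0.54 ± 0.50 turned to 0.06 without the low-pigmented pair 2 library. *Ddx26b*, named as a helicase but encoding a relative of an Integrator subunit, was at 17.7, 0 and 17.3 CPM against 21.2, 7.15 and 12.28 CPM, with a log2 fold change of -0.19 ± 1.19.

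The germline genes *Ddx25* and *Ddx4*, the interferon-induced *Ddx60* and the cohesion helicase *Ddx11* were low. *Ddx25*, known from spermatids, was at 13.7, 0 and 13.2 CPM in high-pigmented and 12.4, 8.29 and 20.1 CPM in low-pigmented libraries. *Ddx4*, the germ cell marker Vasa, was at 1.46, 0 and 1.99 CPM against 0.661, 2.86 and 2.41 CPM. Both germline rows thus held reads in 5 of the 6 libraries, and *Ddx4* never exceeded 2.86 CPM.

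*Ddx60* was at 2.28, 0 and 0.234 CPM in high-pigmented and 1.65, 12.6 and 1.99 CPM in low-pigmented libraries. *Ddx11* was at 2.28, 0 and 1.17 CPM against 6.45, 3.15 and 0.420 CPM. Their log2 fold changes of -2.53 ± 1.54 and -1.41 ± 1.44 had standard errors well above the median of 0.63, and pairs 1 and 3 disagreed in sign for both genes.

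Counts of 0 were most frequent in pair 2. No count was recorded for 13 members in its high-pigmented library, where 3 counts, the limit that a count of 0 allows, equal 1.74 CPM. The same limit was 0.852 CPM in its low-pigmented library and 0.314 to 0.494 CPM elsewhere. These limits cover counting error only. Of the 13, *Dhx30* had the highest count elsewhere, 395 in the low-pigmented library of pair 3, and its levels in the other 5 libraries, 21.4 to 41.5 CPM, lay above the limit. Why such genes had no count was not tested. At least 20 counts in every library were reached by 31 members.

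Within pairs, 13 of 48 helicases (27.1%) were lower in the high-pigmented library of all 3 pairs, against 17.2% of all genes (30.1% in either direction). Higher in all 3 were *Ddx20* and *Dhx15* (4.17%, against 12.9% of all genes). In pairs 1 and 3 alone, 18 helicases (37.5%) were lower in both, against 28.3% of all genes, and 7 (14.6%) were higher in both, against 29.5%. The median within-pair difference of helicases was -0.06, -0.43 and -0.06 on the log2 scale in pairs 1, 2 and 3. Over all genes it was 0.016, -0.205 and -0.002. A difference over 1 in size was found for 1 helicase in pair 1 (2.08%, against 7.67% of all genes), 23 in pair 2 (47.9%, against 51.9%) and 3 in pair 3 (6.25%, against 9.64%). The SD of the helicase differences was 0.39, 2.21 and 0.77, against 0.57, 2.34 and 0.65 over all genes. Pair 2 had the widest spread among helicases and among all genes alike. Leaving out each library in turn, 18 helicases (37.5%, against 22.9% of all genes) stayed below 0 in the fitted change and 3 (6.25%, against 17.1%) stayed above 0, while 27 changed sign at least once.

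**Figure D4:**
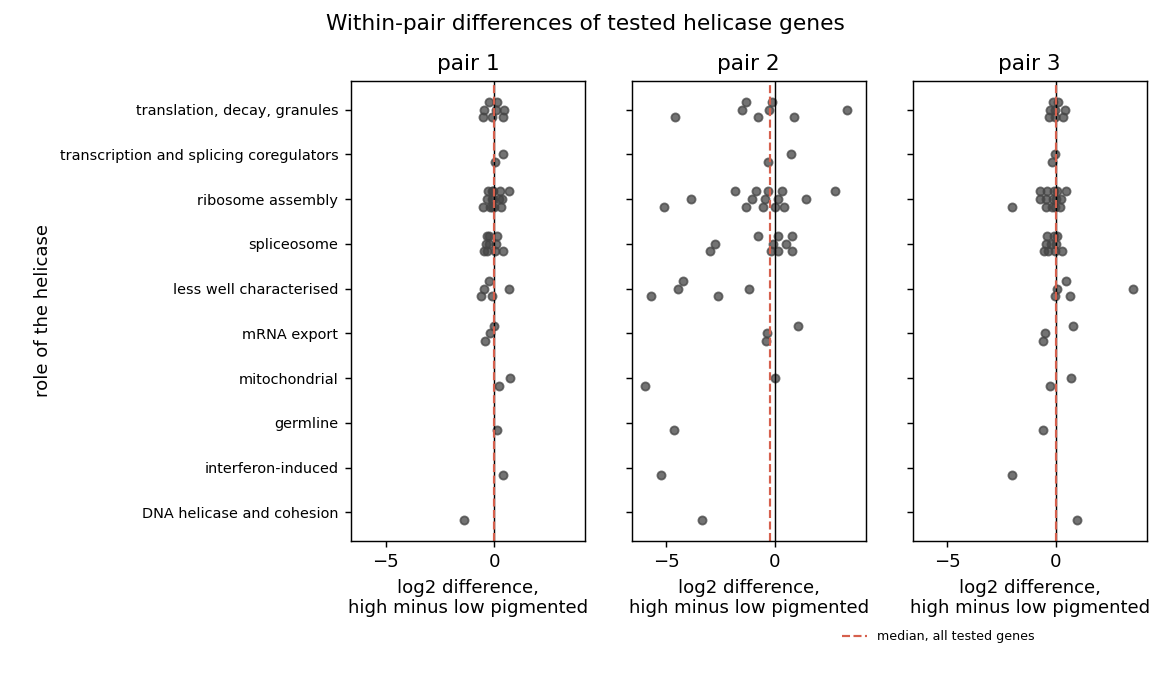
Within-pair difference in log2 CPM (high minus low pigmented, prior count 2) of the 48 tested helicase genes, by role, with 1 dot per gene and a dashed line at the median of all tested genes. Dots spread from -6.01 to 3.34 in pair 2, where a dot at 0 can be a gene without a count in either library. In pair 1 all lie within 1 of 0 except *Ddx11*, and in pair 3 all except *Dhx32* at 3.59, *Ddx60* at -2.03 and *Ddx51* at -2.01.

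Proteins that work with these helicases, and helicases of the same superfamily with symbols other than Ddx or Dhx, were examined as 3 lists. No gene of them reached an adjusted p below 0.05 by edgeR's test, with or without the block. Of 19 tested MIF4G proteins and other DEAD box partners, 4 had a log2 fold change above and 15 below 0, with a median of -0.24. *Eif4g1*, the scaffold of the cap-binding complex, was at 323, 119 and 324 CPM in high-pigmented and 424, 396 and 363 CPM in low-pigmented libraries, without overlap (log2 fold change -0.63 ± 0.45). *Thoc2*, of the THO export complex, was at 126, 75.1 and 162 CPM against 118, 727.5 and 163 CPM, and its log2 fold change of -1.47 ± 0.72 was 0.03 with the block and without pair 2. *Eif4enif1*, *Nom1* and *Cwc22* also had groups that did not overlap, lower in high-pigmented cells, with log2 fold changes of -0.69 ± 0.51, -0.67 ± 0.54 and -0.61 ± 0.50. This made 4 of 19, against 3.31% of all genes in that direction, and 0 in the other. *Eif4g2*, the most abundant of this list, was at 1194, 426 and 932 CPM against 1549, 335 and 1051 CPM. Its groups overlapped, the high-pigmented library was the higher of pair 2, and the log2 fold change was -0.20 ± 0.61.

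Of 19 tested G-patch cofactors, which activate DEAH box helicases, 8 lay above and 11 below 0, with a median of -0.12. *Gpatch4* was at 41.2, 50.6 and 33.2 CPM in high-pigmented and 62.6, 100.3 and 47.2 CPM in low-pigmented libraries (log2 fold change -0.75 ± 0.43), and *Gpank1* at 12.5, 38.4 and 13.8 CPM against 10.6, 10.9 and 7.87 CPM (1.13 ± 0.68). The groups of *Gpank1*, *Gpatch3* and *Gpkow*, the last named after its values were seen, did not overlap and were higher in high-pigmented cells, 3 of 19 against 2.43% of all genes in that direction, with 0 in the other. *Gpatch3* and *Gpkow* had no count in the low-pigmented library of pair 2. Of 20 other helicases of the same superfamily that were tested, 7 lay above and 13 below 0, with a median of -0.27. That median was -0.009 with the block but not pair 2. *Ythdc2* was the only gene of this list whose groups did not overlap, lower in high-pigmented cells, as were 3.31% of all genes. It was at 4.88, 0 and 4.56 CPM against 6.61, 14.3 and 7.45 CPM, with no count in the high-pigmented library of pair 2. The translation initiation helicase *Eif4a1* was at 342, 226 and 238.5 CPM against 412, 140.6 and 329.6 CPM, overlapping between groups (log2 fold change -0.13 ± 0.47).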

How the data were processed

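RNA of sorted B16-F10 cells was sequenced from the 3′ end (QuantSeq FWD, NextSeq 500, per the labels' protocols) in 6 libraries. The authors deposited a table of raw counts, made with HTSeq per the table's name and tally rows. STAR and GRCm38 are named in the submitters' processing notes. The annotation, the counting mode and the use of strand are not given in the sources used here. Molecular identifiers are not mentioned, so copies of 1 molecule count separately. Tally rows stayed out of library sizes (no-feature reads were 12.4% to 29.5% of tallied reads).

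Genes were tested with edgeR 4.0.16 (quasi-likelihood, robust) in R 4.3.3, after filterByExpr at a minimum count of 10 and TMM normalisation, with 2 groups of 3 and no covariate. Adjusted p-values are Benjamini-Hochberg over all tested genes, and standard errors come from the test statistic. CPM uses TMM-scaled sizes, and a prior count of 2 was added for log2 differences within pairs. The scripts were tested on simulated data. DESeq2 1.42.0, limma 3.58.1 (voom), the block on pairs, other filters and scalings, and each library left out in turn served as alternatives. Libraries of 1 suffix deviated together from their group means (correlations across genes of 0.466, 0.316 and 0.422, each over 0.1), so the suffix was taken to pair them. The same correlation was not computed for libraries of different suffixes, so these values alone cannot identify the pairs. Every 2 libraries differed by more than sampling noise (smallest chi-square over its degrees of freedom 13.5).

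The members, role groups and related lists were chosen with earlier results of these data known. Named were *Ddx46*, genes with an unadjusted p under 0.05 with or without the block or an adjusted p under 0.05 with the block and without pair 2, the 2 most abundant genes per role, and up to 5 per direction by median pair difference with 1 sign in all pairs and a mean of at least 10 CPM. In the related lists the rule took 5 genes by unadjusted p and the 2 most abundant. A gene that it named is not reported here. Boxes were read from GENCODE vM21 coding sequence in place of proteins, and promoters came from RefSeq. Shared sequence (at least 100 bases at 95% identity, on either strand) was found with blastn 2.17.0. Figures used matplotlib 3.10.9.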

Additional observations from a re-analysis of the deposited data

How the results depend on the processing

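None of the alternatives gave a helicase with an adjusted p under 0.05. The count of helicases with an unadjusted p under 0.05 was 1, for *Ddx46*, and became 0 with library totals only, with limma-voom and with the replicate block, 4 with the replicate block and without pair 2, and 3 with limma-voom sample weights and the replicate block. Leaving out each library in turn gave 0 to 1, with 0 without any of the 3 high-pigmented libraries or the low-pigmented library of pair 2. The median log2 fold change then ran from -0.37 to -0.04 over the helicases. It ran from -0.362 to -0.015 over G-patch cofactors and from -0.48 to -0.10 over MIF4G and other partners. Over the other helicases of the same superfamily it ran from -0.478 to 0.013, the last without the high-pigmented library of pair 2. With library totals only, 8 instead of 14 helicases were higher in the high-pigmented library of pair 2. The median over all genes shifted by -0.12 without the high-pigmented library of pair 1.

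Estimates that changed sign included some far from 0, *Thoc2* at -1.47, *Gpatch1* at -1.42, *Ddx10* at -1.21, *Aqr* at -0.56 and *Dhx40* at -0.54 over all libraries. *Ddx3x* was at -0.18 with library totals only, -0.25 with the replicate block without pair 2 and -0.19 with sample weights. *Ddx39* was at 0.03 with the replicate block. Without pair 2 and with the block, *Ddx26b* was at 0.11, *Ddx6* at 0.03, *Aqr* at 0.04, *Gpatch1* at 0.25 and *Thoc2* at 0.03. With sample weights *Ddx26b* was at 0.07, *Ddx6* at 0.02 and *Gpatch1* at 0.08. With 1 library left out, the log2 fold change ranged from -0.08 to 0.77 for *Ddx17*, -0.60 to 0.37 for *Ddx26b*, 0.00 to 1.51 for *Ddx28*, -0.54 to 0.40 for *Ddx39*, -0.31 to 0.28 for *Ddx3x*, -0.42 to 0.27 for *Ddx5*, -0.52 to 0.29 for *Ddx6*, -0.06 to 0.55 for *Dhx15*, -0.84 to 0.20 for *Dhx30*, -0.82 to 0.06 for *Dhx40*, -0.90 to 0.01 for *Dhx9*, -0.46 to 0.19 for *Eif4a1*, -0.61 to 0.30 for *Eif4g2* and -0.14 to 0.01 for *Rbm17*. The cause of these changes was not tested. The spread between 3 libraries and the low counts in pair 2 limit what could be detected.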
